A study of Arabidopsis thaliana with 24 samples.

Results

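Expansins and TRICHOME BIREFRINGENCE-LIKE (TBL) proteins act on the polysaccharides of the plant cell wall, and the 39 genes of these 2 families that could be named were followed through roots and shoots of Arabidopsis thaliana with and without cadmium. Members were all probe sets annotated to a single gene whose symbol is EXPA, EXPB, EXLA or TBL followed by a number, with 1 probe set per gene. They comprised 17 expansins (10 EXPA, 4 EXPB and 3 EXLA genes) and 22 TBL genes, out of 22746 probe sets tested, of which 13513 carry a single gene name. A further 2 probe sets were annotated to several genes that include an expansin name, and these were left out. Other genes of both families may lie among the 8730 probe sets to which the annotation gives no gene, so the members may be only a part of each family.

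The study compared oas-a1.1 with the wild type (WT), both of accession Col-0. The oas-a1.1 line carries a T-DNA insertion in OASA1, which encodes a cytosolic enzyme that makes cysteine, and it is the only mutant allele in the series. Plants were raised in hydroponic culture, and the 8 groups of 3 ATH1 arrays were cadmium-treated oas-a1.1, cadmium-treated WT, untreated oas-a1.1 and untreated WT, each as roots and as shoots. Exposure to cadmium chloride lasted 18 h for roots and 24 h for shoots, so cadmium responses were not compared between the organs. The labels state its dose as 50 µM in one place and as 50 mM in another, and the dose is therefore uncertain here. Values are log2 RMA values, on which a difference of 1 is 2-fold, and the 3 arrays of a group are biological replicates according to the labels.

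Expansins loosen the wall at acid pH without cutting its polymers, which lets cells enlarge under turgor. The α-expansins (EXPA) and β-expansins (EXPB) are the 2 groups with this activity, whereas for the expansin-like A proteins (EXLA) no wall-loosening activity has been shown. TBL proteins carry acetyl groups onto wall polysaccharides in the Golgi, and several of them have a known substrate. TBL28, TBL30, TBL32, TBL34 and TBL35 acetylate xylan, and TBL23, TBL25 and TBL26 acetylate mannan. TBL38 is an exception, since it removes acetyl groups from pectin in the wall of the seed coat.

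The arrays matched their organ labels. PYK10, a root β-glucosidase, read 7.65 higher in roots than in shoots of untreated WT on the log2 scale. RCA, the activator of Rubisco, read 6.15 lower there. Array values differed in one respect that the groups do not set. A control for 25S ribosomal RNA lay at 7.72 to 11.96 on 16 arrays but only at 4.62 to 6.0 on 8 arrays, of which 6 carry replicate number 1. Of the 39 members, 8 had a mean below the 40th percentile of all probe set means (5.02) in each of the 8 groups, namely EXPA21, EXPA24, EXPB5, EXLA2, TBL15, TBL19, TBL20 and TBL42. Little can be said of their differences, and none of the 8 passed the test in a genotype or cadmium comparison. Between organs, EXLA2 and TBL19 were called in untreated oas-a1.1.

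Most expansins were higher in roots than in shoots, by a median of 1.33 log2 units in untreated WT and 0.89 in untreated oas-a1.1, while the TBL genes were spread around smaller medians of 0.39 and 0.49. The median over all probe sets was 0.04 in WT and 0.06 in oas-a1.1. In WT, 12 of 17 expansins passed the limma test, 10 higher and 2 lower in roots, and 13 of 22 TBL genes did, 10 higher and 3 lower. Over all probe sets 44.2% were called in WT, 23.1% higher and 21.2% lower. In oas-a1.1, 12 expansins (10 higher, 2 lower) and 15 TBL genes (13 higher, 2 lower) were called, against 45.2% of all probe sets, 24.1% higher and 21.2% lower. The oas-a1.1 counts include EXLA2 (0.42) and TBL19 (0.44), which were low in every group. A difference of at least 2-fold in WT was seen for 10 of 17 expansins and 7 of 22 TBL genes, against 23.5% of all probe sets. In total 23 members were called in the same direction in both genotypes, 19 of them higher in roots, where 36.5% of all probe sets were so called and 19.1% were higher in roots in both. Since whole organs were extracted, a lower value cannot be told apart from fewer cells of the type that carries the transcript.

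EXPA4 had the widest difference among the expansins. It read 9.32, 9.89 and 9.78 in untreated oas-a1.1 roots, against 5.05, 4.99 and 5.64 in untreated oas-a1.1 shoots. In WT it read 10.00, 9.82 and 10.11 in roots, against 5.14, 5.23 and 5.36 in shoots. Every root array stood far above every shoot array, and the difference was 4.73 ± 0.28 in WT (SE, limma adjusted p = 1.17e-11) and 4.44 ± 0.28 in oas-a1.1 (adjusted p = 3.07e-11). EXPB3, a β-expansin, was higher in roots by 3.83 ± 0.31 in WT and 3.21 ± 0.31 in oas-a1.1. In WT the next were EXPA7 (2.59 ± 0.21) and EXPA15 (2.22 ± 0.19). In oas-a1.1 the next were EXPB1 (2.42 ± 0.20), EXPA7 (2.38 ± 0.21) and EXPA9 (2.24 ± 0.34), with EXPA15 at 1.58 ± 0.19. EXPA7 and EXPA18 are the α-expansins of root hair cells. EXPA7 read 7.10, 6.45 and 7.17 in untreated oas-a1.1 roots, against 4.49, 4.34 and 4.74 in the matching shoots, and 7.39, 7.25 and 7.10 in WT roots, against 4.58, 4.58 and 4.80 in WT shoots. EXPA18 was higher in roots by 1.64 ± 0.16 in WT and 1.33 ± 0.16 in oas-a1.1. For both genes no root array of an untreated group reached down to the shoot arrays.

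EXPA8 and EXPA16 were the expansins called lower in roots in both genotypes. EXPA8 read 4.22 to 4.64 over all 12 root arrays. In untreated shoots it read 8.34, 6.73 and 6.04 in oas-a1.1, against 7.83, 7.96 and 8.78 in WT. In untreated plants its shoot arrays varied more than its root arrays, with an SD of 1.18 in oas-a1.1 shoots and 0.52 in WT shoots, against 0.11 in oas-a1.1 roots and 0.09 in WT roots. The root minus shoot difference was -3.82 ± 0.42 in WT (adjusted p = 1.62e-07) and -2.65 ± 0.42 in oas-a1.1 (adjusted p = 2.16e-05). EXPA16 had log2 differences of -0.59 ± 0.17 in WT and -1.24 ± 0.17 in oas-a1.1. EXLA1, which changed with cadmium in roots, did not pass between the organs of untreated plants (-0.30 ± 0.42 in WT and 0.22 ± 0.42 in oas-a1.1, adjusted p = 0.614 and 0.705).

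Among the TBL genes, TBL36 and TBL39 stood far from the rest. TBL36 read 10.33, 10.26 and 10.52 in untreated oas-a1.1 roots, against 4.97, 5.01 and 4.96 in untreated oas-a1.1 shoots. In WT it read 10.19, 10.01 and 10.33 in roots, against 4.90, 5.18 and 5.31 in shoots. The difference was 5.05 ± 0.14 in WT (adjusted p = 9.72e-17) and 5.39 ± 0.14 in oas-a1.1 (adjusted p = 3.35e-17). TBL39 differed by 4.1 ± 0.19 in both genotypes. It read 9.10, 8.72 and 8.37 in untreated oas-a1.1 roots, against 4.72, 4.55 and 4.62 in the shoots of that genotype, and 8.79, 8.95 and 8.66 in WT roots, against 4.84, 4.64 and 4.62 in WT shoots. Neither gene had a shoot array near its root arrays.

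By substrate, the xylan genes among the members that passed were higher in roots and the mannan genes among them that passed were lower. Further genes of either substrate may be missing from the members, so these are not complete groups. Of all 22 TBL genes, 10 were called higher in roots in both genotypes and 2 lower. The direction higher in roots was therefore not particular to the xylan genes. Over all probe sets 36.5% were called in the same direction in both genotypes, with 19.1% higher in roots in both and the rest lower in both. Of the 5 xylan genes, 4 were called higher in roots in both genotypes, with TBL35 at 1.50 ± 0.24 in WT and 1.41 ± 0.24 in oas-a1.1 and TBL34 at 1.19 ± 0.17 and 1.05 ± 0.17. TBL28 and TBL30, which are neighbours on the chromosome with 0 protein-coding genes between them, had 0.86 ± 0.18 and 0.90 ± 0.18 in WT. TBL32 read 0.19 ± 0.31 in WT and did not pass. Of the 3 mannan genes, 2 were called lower in roots in both genotypes: TBL25 by -0.83 ± 0.16 in WT and -0.97 ± 0.16 in oas-a1.1, and TBL26 by -1.31 ± 0.45 and -2.42 ± 0.45. The call of TBL26 in WT (adjusted p = 0.0233) was lost when root replicate 1 or 2 or shoot replicate 1 was left out, with adjusted p up to 0.104. TBL23 differed by 0.09 ± 0.14 in WT and by -0.06 ± 0.14 in oas-a1.1. TBL45 was lower in roots of WT (-1.69 ± 0.31, adjusted p = 0.0001), and in oas-a1.1 it read -0.34 ± 0.31 (adjusted p = 0.397).

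**Figure D1:**
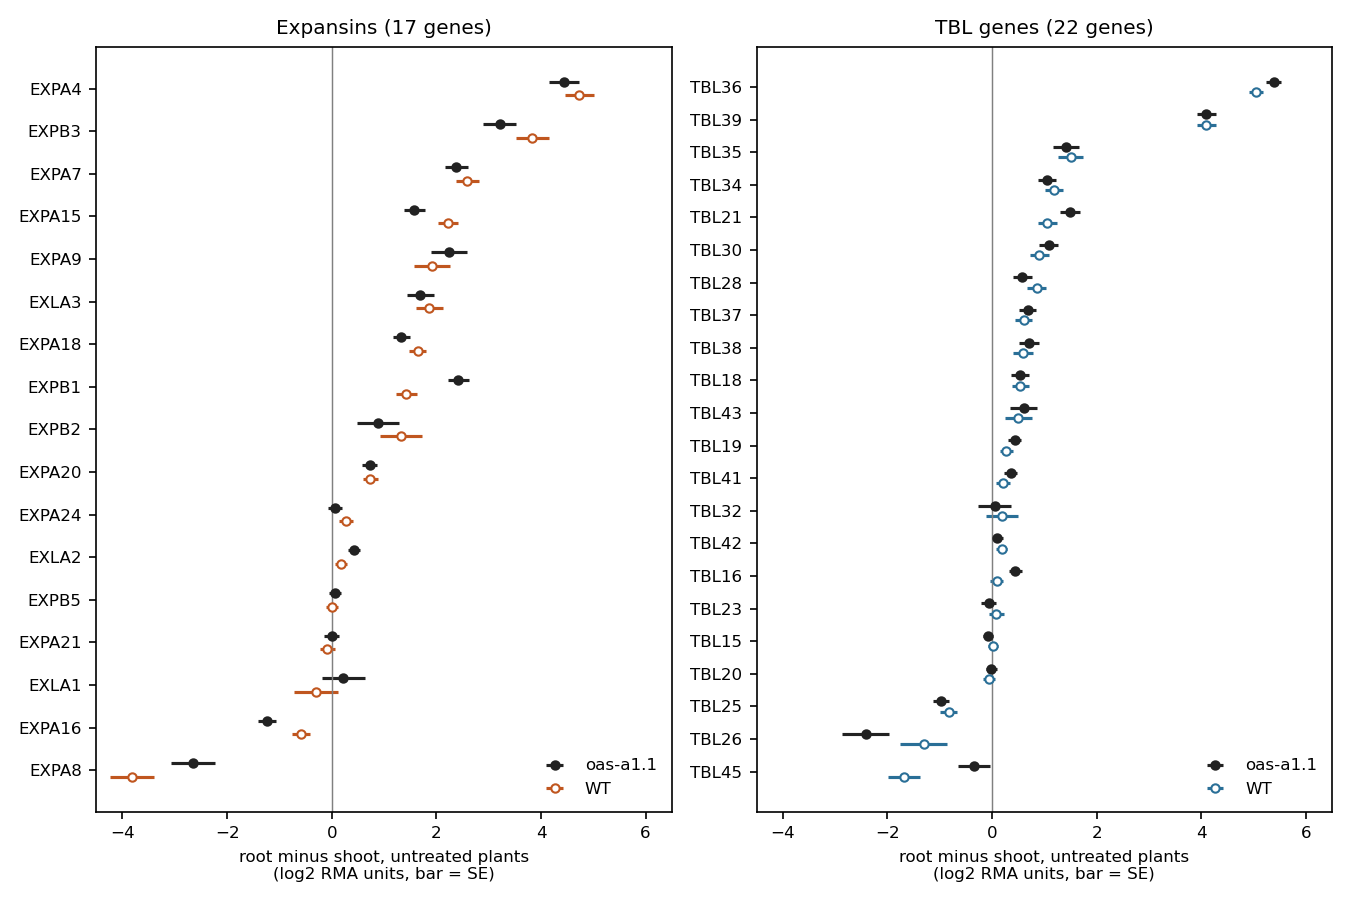
Root minus shoot difference of each expansin (left) and each TBL gene (right) in untreated plants, in log2 RMA units, with bars for the limma SE; filled points are oas-a1.1 and open points WT. Expansins run from -3.82 for EXPA8 to 4.73 for EXPA4 in WT, and TBL36 and TBL39 lie at 4.1 or more in both genotypes.

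A view of both families over all 8 groups used each gene's value minus its own mean over 24 arrays, so that no gene's level was set against that of another. The median of the 17 expansins so centred was 0.00 to 0.76 on the 12 root arrays and -0.77 to -0.35 on the 12 shoot arrays. For the 22 TBL genes it was 0.02 to 0.60 on root arrays and -0.29 to -0.10 on shoot arrays. Both families therefore had every root array above every shoot array, with a wider step for the expansins. Within roots, the TBL group medians were 0.04 in cadmium-treated oas-a1.1, 0.33 in cadmium-treated WT, 0.21 in untreated oas-a1.1 and 0.16 in untreated WT. For the expansins they were 0.15, 0.25, 0.54 and 0.64 in the same order of groups. A step between group medians is not the change of a typical gene: the median cadmium difference per expansin was 0.02 in oas-a1.1 roots and 0.04 in WT roots, with 9 and 10 of 17 genes positive. No test was made over a family.

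**Figure D2:**
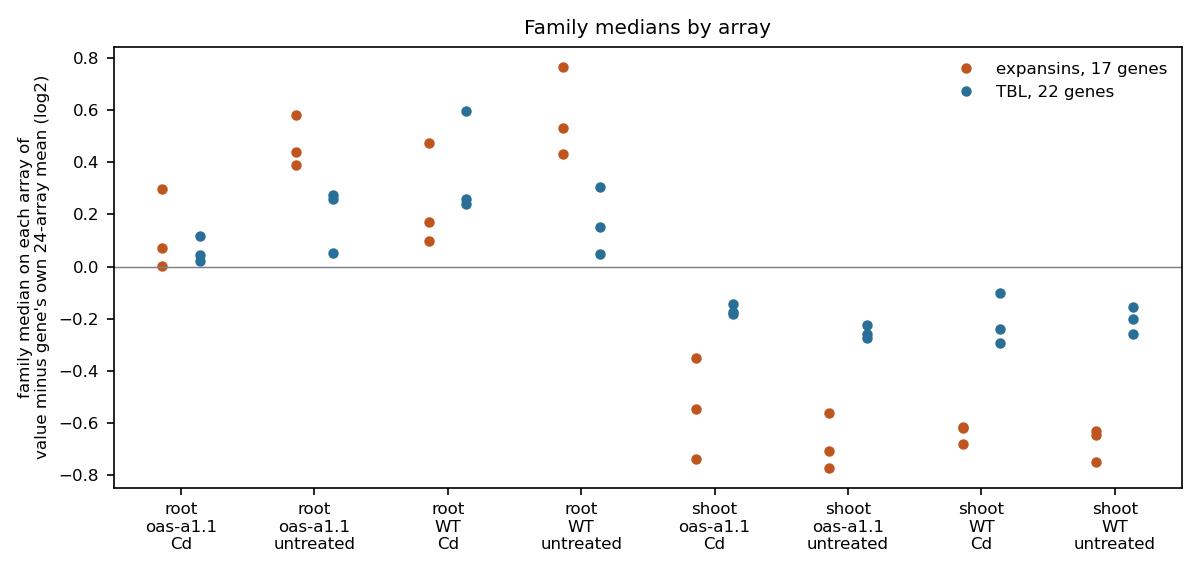
Median over the 17 expansins and over the 22 TBL genes on each of the 24 arrays, after each gene's own mean over all arrays was subtracted (log2 units); each point is 1 array, in 8 groups of 3. Root arrays of expansins lie between 0.00 and 0.76 and shoot arrays between -0.77 and -0.35, and the step of the TBL genes is narrower.

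In untreated roots none of the 39 genes passed the limma test between oas-a1.1 and WT. The count was 0, where 0.356% of all probe sets were called. An unadjusted limma p under 0.05 was found for 3 members (2 expansins and 1 TBL gene). The share of all probe sets at that unadjusted threshold is not given, so this count is not read as a result. Over the other fits the count was 0 or 1. EXPB1 read 6.78, 7.54 and 7.17 in oas-a1.1 roots, against 6.39, 6.35 and 6.18 in WT roots. These groups did not overlap, but the difference of 0.86 ± 0.21 had an adjusted p of 0.165. EXPA15 read 6.36, 6.92 and 6.67 in oas-a1.1 roots, against 7.19, 7.39 and 7.14 in WT roots, a difference of -0.59 ± 0.21 with an adjusted p of 0.481. The TBL genes ranged from -0.27 to 0.38 in this comparison.

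Cadmium changed 2 of the 39 genes in WT roots, 1 expansin lower and 1 TBL gene higher, where 3.91% of all probe sets were called, 1.64% higher and 2.27% lower. EXLA1 read 5.83, 5.58 and 6.28 in cadmium-treated WT roots, against 8.35, 8.16 and 7.64 in untreated WT roots. All treated arrays lay more than 1 log2 unit below all untreated ones, and the gene fell by 2.15 ± 0.33 on the log2 scale (adjusted p = 0.00477). EXLA3, its immediate neighbour on the chromosome, read 5.06, 4.99 and 5.52 in cadmium-treated WT roots, against 6.80, 6.17 and 5.96 in untreated ones. The EXLA3 groups did not overlap, yet the difference of -1.12 ± 0.34 did not pass (adjusted p = 0.107). TBL41 read 6.09, 5.69 and 5.94 with cadmium, against 5.11, 5.42 and 5.27 without it, and rose by 0.64 ± 0.13 (adjusted p = 0.0207). The EXLA1 call held without any 1 array. That of TBL41 was lost without cadmium-treated replicate 1 or 3 or untreated replicate 1 or 3, with adjusted p up to 0.0951. The TBL41 call was also lost in a fit of the compared arrays alone (adjusted p = 0.0817). On the arrays with a high 25S control it was lost as well (adjusted p = 0.0571).

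In oas-a1.1 roots cadmium lowered 6 members, 3 expansins and 3 TBL genes, and raised none of the 39. Over all probe sets 4.26% were called and 1.81% were called lower. EXPB1 read 5.47, 4.93 and 5.55 in cadmium-treated oas-a1.1 roots, against 6.78, 7.54 and 7.17 in untreated ones, and fell by 1.85 ± 0.21 (adjusted p = 0.000564). EXLA1 read 6.62, 6.35 and 6.34 with cadmium, against 7.48, 7.80 and 8.95 without it, and fell by 1.64 ± 0.33 (adjusted p = 0.0177). EXPA15 read 5.57, 5.68 and 5.51 with cadmium, against 6.36, 6.92 and 6.67 without it, and fell by 1.06 ± 0.21 (adjusted p = 0.0156). In each of the 3 genes the treated arrays all lay below the untreated ones, and the EXLA1 arrays were most spread in the untreated mutant, where the SD was 0.77.

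The TBL genes that fell in oas-a1.1 roots were TBL37, TBL38 and TBL39. TBL37, a gene of the jasmonate response, read 6.68, 6.41 and 6.82 in cadmium-treated roots, against 7.64, 7.40 and 7.72 in untreated roots, and fell by 0.95 ± 0.16 (adjusted p = 0.00759). TBL39 read 7.69, 7.03 and 7.85 with cadmium, against 9.10, 8.72 and 8.37 without it, and fell by 1.21 ± 0.23 (adjusted p = 0.0121). TBL38 read 8.14, 7.51 and 7.91 with cadmium, against 8.54, 8.41 and 8.68 without it, and fell by 0.69 ± 0.16 (adjusted p = 0.0328). None of the 3 had overlapping groups, which describes the same arrays and is no further test. In a fit of the compared arrays alone, EXLA1, TBL38 and TBL39 lost their calls (adjusted p = 0.0666, 0.107 and 0.0681). TBL39 also lost its call on the arrays with a high 25S control (adjusted p = 0.0685), and EXPA15 after repeated quantile normalization (adjusted p = 0.0556). With 1 array left out instead, EXPB1, TBL37 and TBL39 kept their calls. EXLA1 lost its call without treated replicate 2 or 3 (adjusted p up to 0.0612), EXPA15 without treated replicate 1 or 3 or untreated replicate 2 or 3 (up to 0.0703), and TBL38 without treated replicate 2 or 3 or any untreated replicate (up to 0.119).

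The response of TBL genes as a group is described by counts. In oas-a1.1 roots 15 of 22 read lower with cadmium, with a median of -0.20, while in WT roots 14 of 22 read higher, with a median of 0.06. Over all probe sets 52.9% read lower with cadmium in oas-a1.1 and 53.4% read higher in WT, with medians of -0.01 and 0.02. Of the members, 8 TBL genes and 4 expansins read lower with cadmium in oas-a1.1 and higher with cadmium in WT, as did 24.8% of all probe sets. The 5 xylan genes ranged from -0.46 to 0.47 in oas-a1.1 and from -0.35 to 0.52 in WT, and none passed (lowest adjusted p 0.332 and 0.316). The expansins had medians near 0 (0.02 in oas-a1.1 and 0.04 in WT). EXPA7 and EXPA18, the root hair expansins, read 0.08 and 0.35 higher with cadmium in oas-a1.1 roots and 0.09 and 0.52 higher in WT roots, and neither passed.

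**Figure D3:**
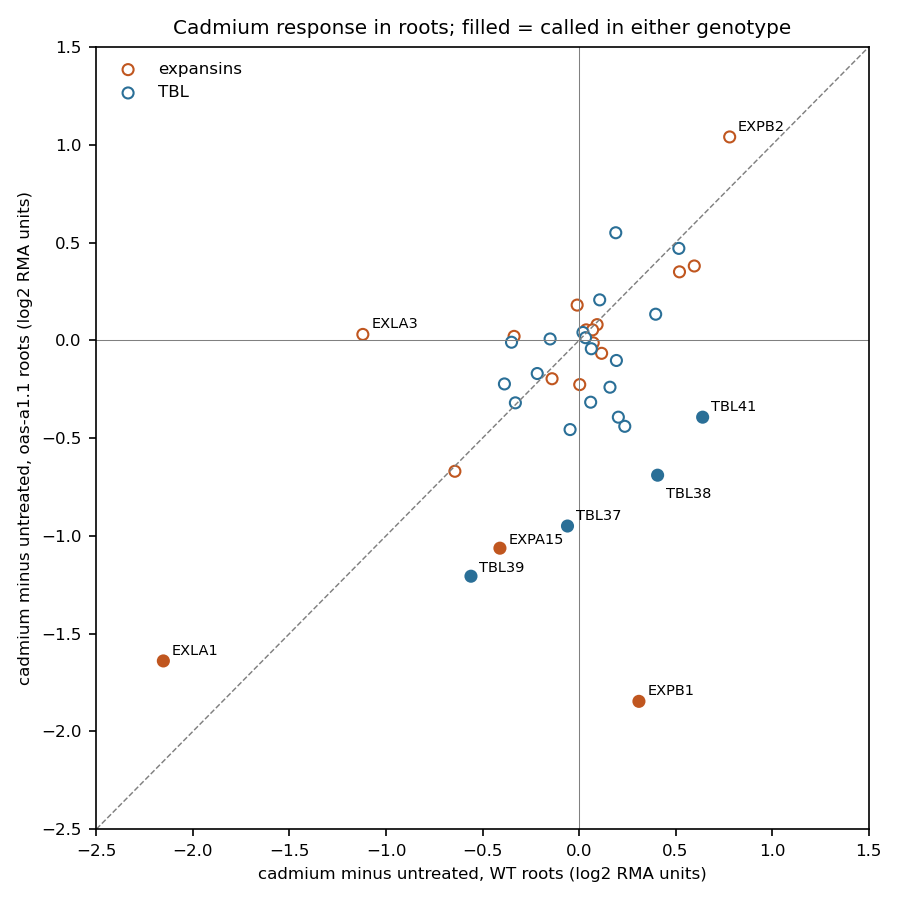
Cadmium minus untreated difference of each member in oas-a1.1 roots (vertical axis) against that in WT roots (horizontal axis), both in log2 RMA units; orange marks expansins, blue TBL genes, and filled points were called in either genotype. EXLA1 lies low on both axes (-1.64 in oas-a1.1 and -2.15 in WT), whereas EXPB1 is at -1.85 in oas-a1.1 and 0.31 in WT.

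Under cadmium the roots of oas-a1.1 had lower values than WT roots for 4 members, 2 expansins and 2 TBL genes, and higher values for none that passed. Over all probe sets 1.74% were called and 0.519% were called lower. TBL41 read 5.15, 4.94 and 4.90 in cadmium-treated oas-a1.1 roots, against 6.09, 5.69 and 5.94 in cadmium-treated WT roots (difference -0.91 ± 0.13, adjusted p = 0.00854). EXPB1 read 5.47, 4.93 and 5.55 in the mutant, against 6.75, 6.38 and 6.72 in WT (difference -1.30 ± 0.21, adjusted p = 0.0135). EXPA15 read 5.57, 5.68 and 5.51 in the mutant, against 6.32, 6.92 and 7.25 in WT (difference -1.24 ± 0.21, adjusted p = 0.0173). The mutant arrays of these genes all lay below the WT arrays.

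TBL38 read 8.14, 7.51 and 7.91 in cadmium-treated oas-a1.1 roots, against 8.82, 8.48 and 8.59 in cadmium-treated WT roots (difference -0.78 ± 0.16, adjusted p = 0.0338), again with no overlap. TBL37 read 6.68, 6.41 and 6.82 in the mutant, against 7.60, 7.29 and 7.04 in WT, and its difference of -0.67 ± 0.16 did not pass (adjusted p = 0.0754). In total 17 of 22 TBL genes read lower in the mutant, with a median of -0.20, against 9 of 17 expansins with a median of -0.01. Over all probe sets 46.2% read higher in the mutant, and the median was -0.01. EXLA3 was the member with the largest positive difference, 1.05 ± 0.34 (adjusted p = 0.195): it read 6.46, 6.19 and 6.06 in the mutant, against 5.06, 4.99 and 5.52 in WT. The number of calls was 1 without oas-a1.1 replicate 2, and 2 without oas-a1.1 replicate 3 or without WT replicate 2. TBL41 kept its call without any 1 array, EXPB1 lost it without oas-a1.1 replicate 2 (adjusted p = 0.0516), EXPA15 without oas-a1.1 replicate 2 or 3 or WT replicate 2 (up to 0.0691), and TBL38 in 5 of 6 cases, all but oas-a1.1 replicate 1 (up to 0.109). On the arrays with a high 25S control alone, EXPB1 and TBL38 lost their calls (adjusted p = 0.0519 and 0.0864), and a fit of the 6 compared arrays alone left 1 call, EXPB1.

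**Figure D4:**
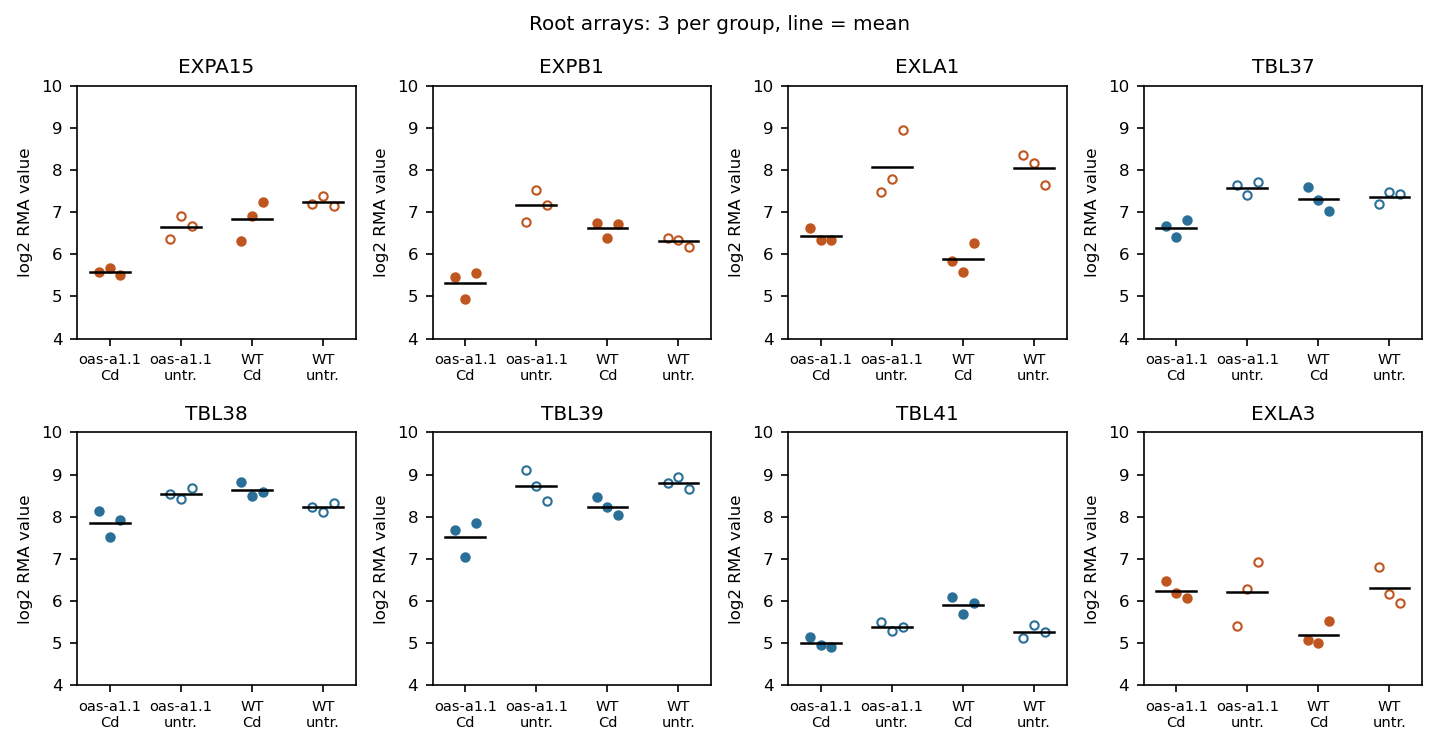
Log2 RMA value on each of the 12 root arrays for members called in a root comparison of genotype or cadmium, and for EXLA3; points are single arrays in 4 groups of 3, filled with cadmium and open without it, and lines are group means. EXPB1, EXPA15 and TBL41 have their lowest group mean in cadmium-treated oas-a1.1 roots, and EXLA1 is low in both cadmium-treated groups.

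The interaction of genotype and cadmium asks whether the cadmium difference in oas-a1.1 roots departs from that in WT roots. It was called for 2 members, both negative, where 0.747% of all probe sets were called and 0.242% were negative calls. EXPB1 read 0.31 ± 0.21 higher with cadmium in WT (adjusted p = 0.613) and fell in oas-a1.1, so the interaction was -2.16 ± 0.29 (adjusted p = 0.0129), and it was called without any 1 of the 12 arrays. TBL41 rose in WT and read -0.39 ± 0.13 in oas-a1.1 (adjusted p = 0.155), with an interaction of -1.03 ± 0.19 (adjusted p = 0.036). That call was lost in 9 of 12 cases with 1 array left out, all but WT untreated replicate 3, WT cadmium replicate 2 and oas-a1.1 cadmium replicate 1, with adjusted p up to 0.0993, and on the arrays with a high 25S control alone. TBL38 had an interaction of -1.10 ± 0.22 that did not pass (adjusted p = 0.0567). For EXPA15, EXLA1, TBL37 and TBL39 the interaction had adjusted p of 0.566, 0.912, 0.133 and 0.633, so a difference between the genotypes in their cadmium response was not shown.

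In shoots few members passed the test. Between the genotypes in untreated shoots 1 of 39 was called, TBL45, where 1.46% of all probe sets were called and 0.813% were called lower. TBL45 read 7.02, 5.53 and 5.91 in oas-a1.1 shoots, against 7.52, 7.96 and 7.68 in WT shoots. Its mutant arrays all lay below the WT arrays, with replicate 1 apart from the other two, and its difference was -1.57 ± 0.33 (adjusted p = 0.0467). Without 1 array the call was lost in 5 of 6 cases, all but oas-a1.1 replicate 1, with the adjusted p ran from 0.00451 to 0.174. The 25S control was low on WT replicates 1 and 2 and on no mutant array of this comparison; with its level as a covariate the difference was -1.43 and did not pass (adjusted p = 0.0845). In cadmium-treated shoots the genotypes differed in 0 members by limma, where 0.154% of all probe sets were called, and no other fit called any. An unadjusted limma p under 0.05 was found for 9 members. That count is at another threshold than the 0.154%. The share of all probe sets at the unadjusted threshold is not given, so the 9 are not read as a result.

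Cadmium raised 2 TBL genes in WT shoots and no expansin, where 5.58% of all probe sets were called and 2.95% were called higher. TBL25, of the mannan group, read 8.52, 8.88 and 8.64 in cadmium-treated WT shoots, against 7.98, 8.08 and 8.38 in untreated WT shoots, and rose by 0.53 ± 0.13 (adjusted p = 0.0434). TBL38 read 8.28, 8.85 and 8.17 with cadmium, against 7.58, 7.71 and 7.60 without it, and rose by 0.80 ± 0.21 (adjusted p = 0.0498). Neither gene had overlapping groups. The TBL25 call was lost without cadmium-treated replicate 2 or 3 or untreated replicate 1 or 2 (adjusted p up to 0.172), and that of TBL38 was lost whichever of the 6 arrays was left out (0.0538 to 0.177). Higher and lower calls were 2 and 0 as reported, 1 and 2 after each array was centred on its median, and 2 and 2 after quantile normalization was repeated.

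Several members came near the threshold in WT shoots without passing. TBL45 had a cadmium difference of -1.27 ± 0.33 (adjusted p = 0.051), EXLA1 of -1.65 ± 0.45 (adjusted p = 0.0574), EXPB3 of 0.41 (adjusted p = 0.0717) and EXPA16 of -0.65 ± 0.20 (adjusted p = 0.0848). EXLA1 read 6.95, 7.10 and 6.04 in cadmium-treated WT shoots, against 8.72, 8.97 and 7.36 in untreated WT shoots, with no overlap. In oas-a1.1 it read 7.95, 7.81 and 8.06 with cadmium, against 7.37, 7.50 and 8.69 without it, and these groups overlapped. The interaction for EXLA1 was 1.74 ± 0.63 (adjusted p = 0.279).

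In oas-a1.1 shoots cadmium changed 0 members by limma, where 2.18% of all probe sets were called. An unadjusted p under 0.05 was found for 3 members, and the other fits called 0 or 1. EXPA16 read 5.0, 5.56 and 4.86 in cadmium-treated oas-a1.1 shoots, against 5.50, 5.97 and 6.18 in untreated ones, a difference of -0.74 ± 0.20 with an adjusted p of 0.0859. The interaction in shoots was called for 0 members, where 0.444% of all probe sets were called. For it 4 members had an unadjusted p under 0.05, and the other fits called 0 or 1. The share of all probe sets at the unadjusted threshold is not given for either comparison, so these unadjusted counts are not read as results. The median differences of both families lay between -0.03 and 0.05 in all 5 shoot comparisons of genotype and cadmium.

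**Figure D5:**
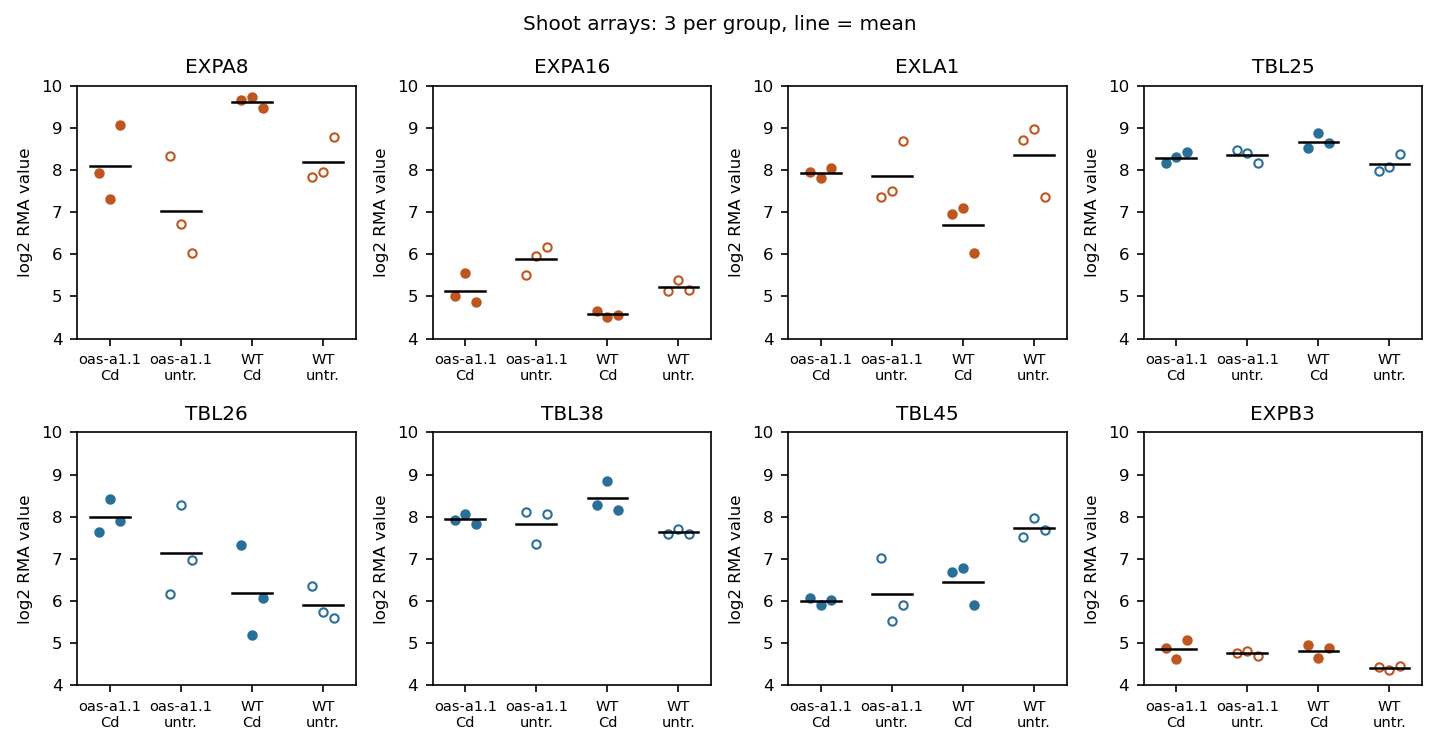
Log2 RMA value on each of the 12 shoot arrays for members that were called in shoots, came near the threshold or had a wide spread between arrays; points are single arrays in 4 groups of 3, filled with cadmium and open without it, and lines are group means. TBL45 is at 7.52 or above on all untreated WT arrays, and TBL25 and TBL38 are highest in cadmium-treated WT shoots.

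Over the 10 comparisons of genotype, cadmium and their interaction, 9 of the 39 members were called at least once, 3 of 17 expansins and 6 of 22 TBL genes, where 13.2% of all probe sets were called at least once. They account for 17 calls, 14 in roots and 3 in shoots, of which 14 were lower and 3 higher; over all probe sets 47.1% of calls were lower. The other 30 members were called in none of the 10. Comparisons that use the same groups share arrays, so these calls are not independent of each other.

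Other wall genes were measured in part, since only probe sets with a single gene name were used. Of the xyloglucan endotransglucosylases (XTH), which cut and rejoin the xyloglucan that tethers cellulose, 10 of 33 were measured. In WT roots cadmium raised 2 of the 10, XTH19 (1.70 ± 0.34, adjusted p = 0.018) and EXGT-A3 (0.62 ± 0.13, adjusted p = 0.0243). In oas-a1.1 roots it raised EXGT-A3 (0.57 ± 0.13, adjusted p = 0.0351) and lowered XTH21 (-1.33 ± 0.24, adjusted p = 0.00928). XTH19 was lower in oas-a1.1 than in WT under cadmium (-1.84 ± 0.34, adjusted p = 0.0236), and its interaction was -2.68 ± 0.48 (adjusted p = 0.0354). In shoots EXGT-A3 was higher in untreated oas-a1.1 than in untreated WT (1.39 ± 0.12, adjusted p = 0.000999). Cadmium lowered it in oas-a1.1 shoots (-0.60 ± 0.12, adjusted p = 0.0322) and raised it in WT shoots (1.13 ± 0.12, adjusted p = 0.000695), with an interaction of -1.73 ± 0.18 (adjusted p = 0.00277).

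Among 3 measured genes of xylan synthesis (GUT2, IRX15 and IRX15-L), cadmium lowered GUT2 in WT roots (-0.80 ± 0.19, adjusted p = 0.0452), and no other passed in a root comparison of genotype or cadmium. The 3 measured xyloglucan synthases had 0 calls in all 10 comparisons. EXLB1, a further expansin-like gene outside the members by its symbol, read 1.29 ± 0.30 higher in oas-a1.1 than in WT roots under cadmium and did not pass (adjusted p = 0.0657). The listed acetylation partners, cellulose synthases and proton pumps had 0 measured genes.

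Few marker genes of tissues were measured, and in roots only single ones among them were called. PYK10, the only 1 of 8 root tissue genes that was measured, rose with cadmium by 0.57 in oas-a1.1 roots and by 0.71 in WT roots. Of the root hair genes, 2 of 16 were measured. SCN1 fell by 0.57 with cadmium in oas-a1.1 roots, while CSLD2 read -0.02 there and did not pass. Their summed level was 9.84 to 10.01 in cadmium-treated and 10.12 to 10.33 in untreated oas-a1.1 roots. It was likewise lower with cadmium in WT roots, at 9.83 to 10.03 against 10.13 to 10.28 without it. There SCN1 read -0.19 and CSLD2 -0.36 with cadmium, and neither passed. Neither gene was confined to roots: in untreated WT shoots SCN1 read 8.81 and CSLD2 8.90, against 9.34 and 9.06 in untreated WT roots. RCA, 1 of 3 photosynthetic genes measured of 24, rose by 1.24 in cadmium-treated WT roots (adjusted p = 0.0455), while LHCB4.1 and LHCB4.2 read -0.21 and 0.10 there and did not pass. The summed level of these 3 was 8.82 to 9.38 in cadmium-treated and 8.91 to 9.61 in untreated oas-a1.1 roots. In WT roots it was 8.98 to 9.59 with cadmium and 8.95 to 9.63 without it. The part of all these markers in the results for expansins and TBL genes was not tested.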

How the data were processed

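RNA from roots and shoots of oas-a1.1 and WT plants was measured on 24 ATH1 arrays. The authors deposited values on the log2 scale, and the submitters' processing notes name RMA and the affy package; RMA subtracts background, equalises array distributions by quantiles and gives 1 value per probe set. Versions, and whether the arrays were all normalized together, are not stated here. Values were used as deposited, the 64 control probe sets were left out and 22746 were tested with no filter on level. The labels gave each array's group and replicate number. The platform annotation names 1 gene for 13513 probe sets, several for 503 and none for 8730. All 39 members were found in the RefSeq gene table (TAIR10.1). The probe set of TBL32 is of a kind that can bind related transcripts. ATH1 intensities give no depth per value, and 3 arrays per group limit the precision.

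Each organ was fitted by itself in limma 3.58.1 (R 4.3.3), with 1 mean per group over 12 arrays and empirical Bayes moderation. Root against shoot was fitted over all 24 arrays. Tests were two-sided, p was adjusted over all probe sets of a comparison (Benjamini and Hochberg), and called means an adjusted p under 0.05. A standard error (SE) comes from the limma model, and an SD from the 3 arrays of a group. Statements that groups did or did not overlap describe the same arrays that were tested. They add no support to a call, and the share of all probe sets without overlap is not given. P-values weigh a group difference against the spread within groups, pooled over all arrays of the fit and moderated over probe sets.

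Members, wall gene lists and the naming rule were chosen with earlier results of these data known. The rule named every member called in at least 1 of the 10 genotype, cadmium and interaction comparisons, with array values for up to 3 per family and comparison, and up to 4 members per family and direction between organs; other members are given by counts or values. Alternatives were to keep the upper 60% of probe sets (by mean), to centre arrays, to repeat the quantile normalization, to fit all 24 arrays in 1 model or those compared alone, to use a robust prior with a trend, to weight arrays, to add the replicate number as a block or the 25S level as a covariate, and to omit single arrays. Added after the data were seen was a fit of arrays with the 25S control at or above 7. Residuals of arrays with the same replicate number correlated above 0.1 in every pair only for oas-a1.1 against WT in cadmium-treated roots (0.11 to 0.64). The 0.64 was for replicate 1, where both arrays had a low 25S control (4.75 in oas-a1.1 and 5.6 in WT). For cadmium in WT roots the replicate 1 pair reached 0.60, the replicate 3 pair 0.44 and the replicate 2 pair -0.15. In that replicate 1 pair only the cadmium-treated array had a low 25S control (5.6, against 10.67 untreated). For cadmium in oas-a1.1 roots the pairs of replicates 1, 2 and 3 had 0.49, 0.02 and 0.39. Between the genotypes in untreated roots they had 0.405, -0.11 and 0.40. In roots, replicates 1 and 3 thus had positive correlations above 0.2 in all 4 comparisons, and replicate 2 did not. Whether the numbers pair samples is therefore not known, and the labels name no shared batch.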

Additional observations from a re-analysis of the deposited data

Results flagged for a closer look

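The cadmium response differed between the genotypes, by the interaction term of the limma model in roots, for 2 members. EXPB1 had an interaction of -2.16 (adjusted p = 0.0129): in cadmium-treated oas-a1.1 roots it fell by 1.85 and it read 0.31 higher in cadmium-treated WT roots, without passing. TBL41 had an interaction of -1.03 (adjusted p = 0.036), and its adjusted p ran from 0.0397 to 0.0993 with 1 array left out. No cause was tested for either gene.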

How the results depend on the processing

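Member values kept their sign wherever they were called, in every alternative run: 1266 recomputed values kept their side of the threshold, 97 lost a call, 69 gained one and 0 reversed. These totals pool organ calls, most of which held in every fit, with genotype, cadmium and interaction calls, most of which did not. Of the latter, only EXLA1 for cadmium in WT roots, EXPB1 and TBL37 for cadmium in oas-a1.1 roots, and the EXPB1 interaction in roots were called in every fit. With 1 array left out, counts of members called ran as follows. Between oas-a1.1 and WT they were 0 to 0 in untreated roots, 1 to 4 in cadmium-treated roots, 0 to 2 in untreated shoots and 0 to 0 in cadmium-treated shoots. For cadmium they were 3 to 5 in oas-a1.1 roots, 1 to 2 in WT roots, 0 to 1 in oas-a1.1 shoots and 0 to 2 in WT shoots, for the interaction 1 to 3 in roots and 0 to 0 in shoots, and for organs 25 to 27 in oas-a1.1 and 23 to 26 in WT. With all 24 arrays in 1 model the count was 7 against 4 for oas-a1.1 and WT in cadmium-treated roots, 1 against 0 in untreated roots, 2 against 1 in untreated shoots, 6 against 2 for cadmium in WT shoots and 1 against 0 in oas-a1.1 shoots. With the compared arrays alone it was 1 for the genotypes in cadmium-treated roots, 0 in untreated shoots, and 3 and 1 for cadmium in oas-a1.1 and WT roots. Array weights gave 1 for the genotypes in untreated roots, 2 in untreated shoots, 1 and 8 for cadmium in oas-a1.1 and WT shoots and 1 for the shoot interaction. Cadmium in WT shoots gave 4 with the upper 60% of probe sets, with quantile normalization repeated and with a 25S covariate. Centring gave 1 for cadmium in oas-a1.1 shoots, the trended and robust prior 1 for the root interaction, and the 25S covariate 0 for the genotypes in untreated shoots. Using only arrays with 25S at or above 7, a boundary chosen after seeing the data, gave 2 for the genotypes in cadmium-treated roots, 0 in untreated shoots, 1 for the root interaction, and 1 and 0 for cadmium in WT roots and WT shoots; it leaves 1 array in 2 shoot groups, which is assumed to vary like the others. Beyond the smaller number of arrays in some fits, the cause was not tested.

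With the replicate number as a block the count was 4 for the genotypes in cadmium-treated roots, and the block changed no call there. Samples are known to share only a number in every comparison. The other blocked counts for the genotypes were 0 in untreated roots, 1 in untreated shoots and 0 in cadmium-treated shoots. For cadmium they were 6 and 2 in oas-a1.1 and WT roots, and 0 and 2 in oas-a1.1 and WT shoots. For the interaction they were 3 in roots and 0 in shoots, and for organs 28 in oas-a1.1 and 26 in WT. For cadmium in WT shoots the 2 calls were not the same genes: TBL25 remained, TBL38 was lost and TBL45 was gained.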

Other observations

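Members that were called in no shoot comparison still varied between arrays of one group. EXPA8, an α-expansin, read 7.93, 7.31 and 9.07 in cadmium-treated oas-a1.1 shoots, against 9.67, 9.73 and 9.47 in cadmium-treated WT shoots. In untreated shoots it read 8.34, 6.73 and 6.04 in oas-a1.1, against 7.83, 7.96 and 8.78 in WT. The cadmium difference in WT was 1.43 (limma adjusted p = 0.187), with every treated array above every untreated one. TBL26, a mannan acetyltransferase gene, read 7.64, 8.43 and 7.90 in cadmium-treated oas-a1.1 shoots, against 7.33, 5.19 and 6.06 in cadmium-treated WT shoots. In untreated shoots it read 6.16, 8.27 and 6.96 in oas-a1.1, against 6.36, 5.74 and 5.6 in WT, where groups overlapped. Its difference between oas-a1.1 and WT was 1.80 under cadmium and 1.23 without it, and neither passed.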
